A study of Homo sapiens with 9 samples.

Results

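The 9 genes described here encode the enzymes of serine synthesis and of the folate pathway that carries the single carbons taken from serine. They were taken by symbol out of the 16222 genes in the deposited tables: PHGDH, PSAT1 and PSPH for serine synthesis, SHMT2, MTHFD2, MTHFD1L and ALDH1L2 for the mitochondrial arm of the folate pathway, and SHMT1 and MTHFD1 for its cytosolic arm. The set was chosen by pathway with the fold changes of these libraries already in view, so the changes of the 9 genes between the study's groups are a description and support nothing by themselves. All 9 had enough counts to be tested beside 12970 genes in all, the lowest count in any library being 950 for SHMT1 and the highest 65257 for PHGDH.

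The cells were THP-1, a human monocytic leukaemia line, labelled wild type. All were given PMA, a phorbol ester under which the line attaches and becomes macrophage-like. They then received 1 of 3 treatments: LPS with ABS (LPS_ABS), LPS alone (a lipopolysaccharide of Gram-negative bacteria that activates macrophages), or PBS (control). The labels do not spell out ABS, while the series title speaks of apoptotic bodies, and no dose or time is stated. RNA was sequenced from 3 libraries per group. Whether these were separate cultures is not stated, so their spread, and any p-value built on it, may be technical. In bulk RNA, a change in the number of cells of a kind and a change in RNA per cell cannot be told apart.

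PHGDH oxidises the glycolytic intermediate 3-phosphoglycerate, PSAT1 adds the amino group and PSPH removes the phosphate to give serine. SHMT2 in mitochondria and SHMT1 in the cytosol split serine into glycine and a carbon unit bound to tetrahydrofolate. In mitochondria MTHFD2 and MTHFD1L carry that unit on to formate, which leaves for the cytosol, and ALDH1L2 instead oxidises it to carbon dioxide while making NADPH. In the cytosol the trifunctional MTHFD1 takes up formate for purine and thymidylate synthesis. ATF4, the transcription factor of the amino acid response, is known to activate serine synthesis and mitochondrial folate genes in mammalian cells.

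The stretches before the start sites of 4 of these genes are printed because PHGDH and PSAT1 were among the enzymes that stood highest with LPS, while MTHFD1L and MTHFD1 belong to opposite arms. Each is the 250 bases before the start on the plus strand of GRCh38.p14, from RefSeq, at chr1:119711684-119711933, chr9:78296875-78297124, chr6:150866197-150866446 and chr14:64388103-64388352 in that order. Capitals mark TGATGNAA, a core bound by ATF4 with C/EBP partners, and CACGTG, the E-box.
PHGDH: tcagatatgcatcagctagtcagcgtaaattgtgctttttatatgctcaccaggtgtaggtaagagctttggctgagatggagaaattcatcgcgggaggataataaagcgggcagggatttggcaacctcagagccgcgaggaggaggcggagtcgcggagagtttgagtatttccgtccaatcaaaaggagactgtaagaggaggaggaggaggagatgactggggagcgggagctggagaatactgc
PSAT1: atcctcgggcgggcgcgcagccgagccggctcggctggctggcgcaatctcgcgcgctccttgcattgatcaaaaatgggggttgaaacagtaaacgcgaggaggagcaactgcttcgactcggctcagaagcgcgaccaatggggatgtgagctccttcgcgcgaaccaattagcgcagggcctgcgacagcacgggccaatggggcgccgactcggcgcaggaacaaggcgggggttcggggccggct
MTHFD1L: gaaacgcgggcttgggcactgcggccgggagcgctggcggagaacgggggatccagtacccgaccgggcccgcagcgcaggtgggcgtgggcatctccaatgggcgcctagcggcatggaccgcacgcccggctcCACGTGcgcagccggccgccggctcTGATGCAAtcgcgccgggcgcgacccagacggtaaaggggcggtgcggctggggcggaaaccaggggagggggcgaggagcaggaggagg
MTHFD1: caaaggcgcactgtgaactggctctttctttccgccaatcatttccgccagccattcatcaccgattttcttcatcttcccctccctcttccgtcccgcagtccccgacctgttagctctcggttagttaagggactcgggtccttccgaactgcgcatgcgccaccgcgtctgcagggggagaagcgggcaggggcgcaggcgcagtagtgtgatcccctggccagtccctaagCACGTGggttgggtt
RefSeq windows of 300 bases were at hand for 6 of the 9 genes, 9 windows in all, with PSPH, SHMT2 and ALDH1L2 not among them. MTHFD1L held 1 copy each of TGATGCAA and CACGTG, seen in 3 overlapping windows with different starts. In the window printed they lay at -90 to -83 and at -115 to -110 from the start. From another start they lay at -129 to -122 and at -154 to -149. From the remaining one TGATGCAA lay after the start, at 25 to 32, and CACGTG across it, at -1 to 5. MTHFD1 held CACGTG at -15 to -10. The windows of PHGDH, PSAT1, MTHFD2 and SHMT1 and the fourth MTHFD1L window held neither motif on either strand. Of 35116 such windows in the human table, 3.62% held TGATGNAA and 7.26% held CACGTG, and the matches of both motifs in the MTHFD1L windows did not overlap.

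The deposited libraries held 38506162 to 41679412 counts. Counts in the LPS_ABS libraries followed the GC content of the transcripts differently from the others, with a slope of 0.30 ± 0.07 log2 units per 10 GC points, against -0.15 ± 0.14 with LPS and -0.15 ± 0.01 in controls (SD, n = 3 each, relative to the mean of all libraries). Members span 41.4% GC in MTHFD2 to 58.3% in PHGDH, so their log2 fold changes that involve LPS_ABS are also given after removing this trend. Of 13 monocyte and macrophage markers, 11 averaged at least 1 FPKM in every group, with CD68 the highest, whereas 0 of 5 fibroblast, 0 of 1 T cell (CD2), 0 of 3 endothelial and 0 of 5 epithelial markers with a value did. Of 3 B cell markers with a value 1 did, CD79B. The other markers of these lists (COL3A1, CD3D, CD3E, CD3G, TRAC, CDH5 and MS4A1) had no value under those symbols and were not analysed here. The summed FPKM of the 13 macrophage markers was 753 to 833 in LPS_ABS, 710.0 to 726 in LPS and 651 to 696 in controls, and the part of this difference in the results was not tested.

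**Figure D1:**
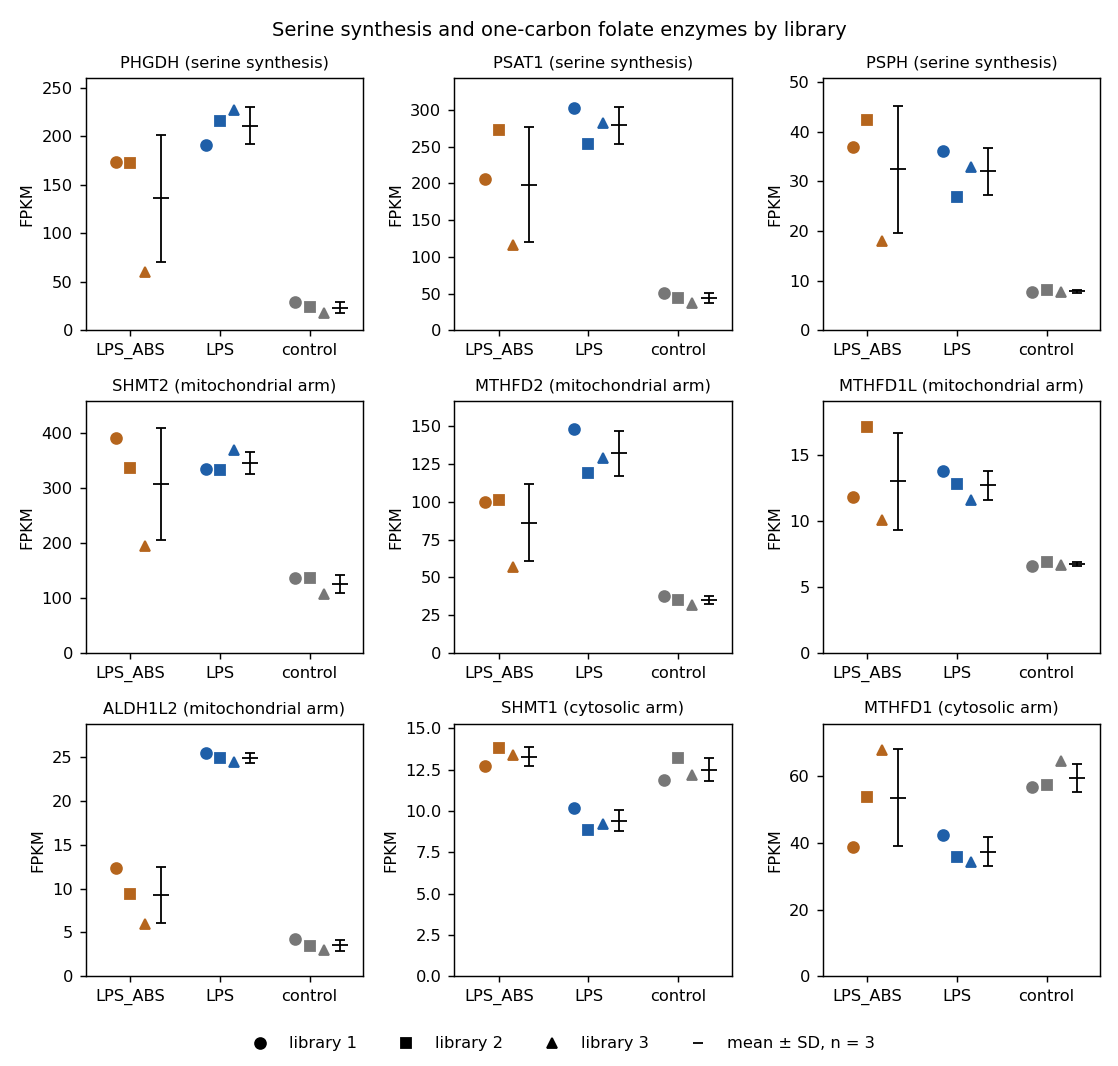
FPKM (vertical axis, linear from 0) of the 9 enzymes in every library of the LPS_ABS, LPS and control groups. Coloured points are libraries and black bars are the mean ± SD of 3. In the 7 panels of serine synthesis and the mitochondrial arm all LPS libraries lie above all control libraries, and the LPS_ABS triangle (library 3) lies below the other LPS_ABS points.

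The first comparison asked what LPS did to these enzymes. With LPS, all 3 enzymes of serine synthesis and all 4 of the mitochondrial arm were higher than in controls, from 1.92-fold in MTHFD1L to 9.16-fold in PHGDH, while both cytosolic enzymes were lower. PHGDH, the committed step of serine synthesis, stood at 191, 216 and 227 FPKM with LPS, against 29.1, 23.9 and 17.7 FPKM in controls. Its log2 fold change was 3.2 ± 0.34 (SE), the 58th highest of the 12970 genes tested. PSAT1 had 303, 253 and 282 FPKM with LPS, against 51.3, 44.0 and 37.5 FPKM in controls, a log2 fold change of 2.68 ± 0.25. PSPH reached 36.2, 26.8 and 33 FPKM with LPS, against 7.80, 8.09 and 7.65 FPKM in controls, a log2 fold change of 2.05 ± 0.26. The LPS and control libraries did not overlap in any of the 3.

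Among the mitochondrial enzymes, SHMT2 was the most abundant per length, at 334, 333 and 368 FPKM with LPS, against 136, 136 and 108 FPKM in controls. Its log2 fold change was 1.48 ± 0.21. MTHFD2, the dehydrogenase and cyclohydrolase, had 148, 119 and 129 FPKM with LPS, against 37.6, 35.3 and 32.1 FPKM in controls, a log2 fold change of 1.94 ± 0.20. MTHFD1L, the formate-releasing synthetase, showed the smallest difference of the 7, with 13.8, 12.8 and 11.6 FPKM under LPS and 6.61, 6.91 and 6.71 FPKM in controls (log2 fold change 0.94 ± 0.17). ALDH1L2 was the tightest of the 4 with LPS, at 25.5, 24.9 and 24.4 FPKM, against 4.23, 3.40 and 2.97 FPKM in controls. Its log2 fold change of 2.85 ± 0.24 was the second largest of the 9 members and the 78th highest of all genes tested.

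The cytosolic pair lay on the other side. SHMT1 had 10.2, 8.88 and 9.23 FPKM with LPS, against 11.9, 13.2 and 12.2 FPKM in controls. MTHFD1 had 42.4, 35.7 and 34.2 FPKM with LPS, against 56.8, 57.3 and 64.5 FPKM in controls. The LPS libraries of both genes lay below all control libraries, with log2 fold changes of -0.38 ± 0.12 for SHMT1 and -0.65 ± 0.17 for MTHFD1.

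At an adjusted p under 0.05 in edgeR's quasi-likelihood test over all genes, 7 members were called higher and 1 lower (MTHFD1) in LPS against control, where 7.71% of all genes were called higher and 7.19% lower. Groups did not overlap in all 9 members, 7 higher and 2 lower, against 18.1% and 23.9% of all genes. Nothing is read from these counts, since the names were chosen with this contrast known. The call of MTHFD1 ended without LPS 2 (log2 fold change -0.57), LPS 3 (-0.60), control 1 (-0.68), control 2 (-0.68) or control 3 (-0.57). SHMT1 was not called, although it was with DESeq2 (-0.37), with the GC trend removed (-0.35), with total counts in place of TMM (-0.40), with only the 2 groups compared (-0.38) and without LPS_ABS 1 or LPS_ABS 3 (-0.38 in both fits), 2 libraries that enter only through the shared spread.

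The order of abundance in FPKM differed between the groups. In controls SHMT2 came first at 126 ± 16.2 FPKM and MTHFD1 second at 59.5 ± 4.27 FPKM (SD, n = 3), followed by PSAT1, MTHFD2, PHGDH, SHMT1, PSPH, MTHFD1L and ALDH1L2 at 3.53 ± 0.639 FPKM. Of these neighbours, PSAT1 and MTHFD2 alone had ranges that overlapped across libraries, and within every control library PSAT1 lay above MTHFD2. With LPS the order was SHMT2 at 345 ± 19.8 FPKM, PSAT1 at 279 ± 24.9 FPKM, PHGDH at 211 ± 18.9 FPKM and MTHFD2 at 132 ± 14.8 FPKM, then MTHFD1, PSPH, ALDH1L2, MTHFD1L and SHMT1 at 9.42 ± 0.656 FPKM, where MTHFD1 and PSPH overlapped. In FPKM, MTHFD1 thus lay above PSAT1, MTHFD2 and PHGDH in every control library and below all 3 in every LPS library. FPKM divides by a length, which the deposited values imply to be 7328 bases for PHGDH and 3154 for MTHFD1. In TMM-scaled CPM, which does not, PHGDH lay above MTHFD1 in control 1, at 204 against 172. With LPS it then came first, at a mean of 1525 against 909 for SHMT2. In LPS_ABS the FPKM ranges of every pair of neighbours overlapped across libraries except PSPH and SHMT1. Within each LPS_ABS library, SHMT2 nevertheless lay above PSAT1, PSAT1 above PHGDH and PHGDH above MTHFD2 in FPKM. MTHFD1 lay above PSPH within every LPS_ABS and every LPS library. The order of MTHFD2 and MTHFD1, of SHMT1 and MTHFD1L, and of MTHFD1L and ALDH1L2 differed between LPS_ABS libraries.

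**Figure D2:**
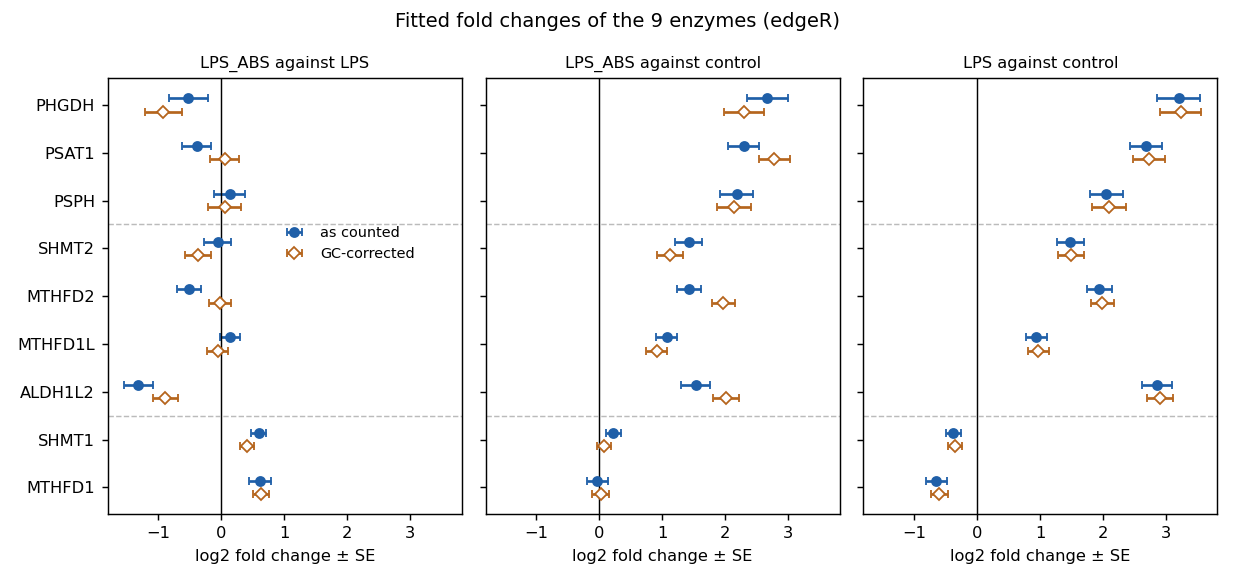
Fitted log2 fold change ± SE (horizontal axis) of each enzyme in 3 comparisons, as counted (filled circles) and with the GC trend removed (open diamonds); dashed lines part serine synthesis, the mitochondrial arm and the cytosolic arm. The upper 7 enzymes lie right of 0 in both comparisons with control, and ALDH1L2 has the lowest value in LPS_ABS against LPS as counted (-1.32).

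The second comparison set LPS with ABS against LPS alone. ALDH1L2 was lower with ABS and both cytosolic enzymes were higher, while the other 6 members were not called. ALDH1L2 had 12.4, 9.42 and 6.02 FPKM in LPS_ABS, against 25.5, 24.9 and 24.4 FPKM in LPS, with no overlap. Its log2 fold change was -1.32 ± 0.23, and -0.89 ± 0.20 with the GC trend removed. SHMT1 had 12.7, 13.8 and 13.4 FPKM in LPS_ABS, against 10.2, 8.88 and 9.23 FPKM in LPS, also with no overlap. Its log2 fold change was 0.59 ± 0.12, and 0.41 ± 0.11 with the trend removed. MTHFD1 had 38.8, 53.9 and 67.9 FPKM in LPS_ABS, against 42.4, 35.7 and 34.2 FPKM in LPS. LPS_ABS 1 overlapped with the LPS libraries in FPKM, but at 134 TMM-scaled CPM it lay above their 128, 111 and 109. The log2 fold change was 0.61 ± 0.17, or 0.63 ± 0.13 with the trend removed.

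The 7 enzymes that stood high with LPS spread widely within the LPS_ABS group, where LPS_ABS 3 lay apart from LPS_ABS 1 and 2. PHGDH had 174, 173 and 60.6 FPKM in LPS_ABS 1, 2 and 3, against 191 to 227 FPKM in LPS, so that all 3 lay below LPS. In TMM-scaled CPM the groups overlapped, with PHGDH at 1395 in LPS_ABS 1 and 1337 in LPS 1. PSAT1 had 206, 272 and 116 FPKM in the LPS_ABS libraries, against 253 to 303 FPKM in LPS. PSPH had 36.9, 42.3 and 18.1 FPKM in LPS_ABS, against 26.8 to 36.2 FPKM in LPS. For PSPH, LPS_ABS 1 and 2 lay above every LPS library and LPS_ABS 3 below every one. SHMT2 had 390.1, 336 and 195 FPKM in LPS_ABS, against 333 to 368 FPKM in LPS. MTHFD2 had 99.8, 101 and 57.2 FPKM in LPS_ABS, all below the 119 to 148 FPKM in LPS. MTHFD1L had 11.8, 17.1 and 10.1 FPKM in LPS_ABS, against 11.6 to 13.8 FPKM in LPS. LPS_ABS 3 was the lowest of its group in all 7, and the highest in MTHFD1.

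Fold changes of these enzymes between LPS_ABS and LPS were small beside their SE or moved with the GC trend. PHGDH was at -0.53 ± 0.31 on the log2 scale, -0.92 ± 0.30 with the trend removed and -0.17 without LPS_ABS 3. It was not called in these fits, but was with the trend removed and replicate number as a block (-1.06). PSAT1 was at -0.39 ± 0.23, at 0.05 ± 0.23 with the trend removed and at -0.11 without LPS_ABS 3. MTHFD2 was at -0.51 ± 0.19 and not called, and stood at -0.02 ± 0.17 with the trend removed and at -0.28 without LPS_ABS 3. MTHFD2 was called with DESeq2 (-0.51) and, in edgeR, with RLE size factors (-0.51), total counts in place of TMM (-0.62) or no filter on low counts (-0.54). It was also called with replicate number as a block (-0.55), and without LPS_ABS 1 (-0.66) or LPS 2 (-0.61). SHMT2 was at -0.06 ± 0.21, at -0.37 ± 0.21 with the trend removed and at 0.19 without LPS_ABS 3. PSPH was at 0.13 ± 0.24, at 0.05 ± 0.26 with the trend removed, and called without LPS_ABS 3 (0.42). MTHFD1L was at 0.13 ± 0.16, at -0.06 ± 0.17 with the trend removed, at -0.10 without LPS_ABS 2 and at 0.29 without LPS_ABS 3.

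In LPS_ABS against LPS, 2 members were called higher and 1 lower in edgeR, where 16.8% of all genes were called higher and 18.8% lower. With the GC trend removed the same 3 genes were called, against 5.14% of all genes higher and 4.54% lower. Groups of FPKM values did not overlap in 1 member that was higher (SHMT1) and 3 that were lower (PHGDH, MTHFD2 and ALDH1L2), against 15.4% and 29.4% of all genes. In TMM-scaled CPM, PHGDH overlapped and MTHFD1 did not. As counted, the members' calls and the non-overlapping groups are near the shares of all genes and are not a result about the members as a set. The call of MTHFD1 ended without LPS 3 (0.57).

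The third comparison set LPS_ABS against control. All 7 enzymes of serine synthesis and the mitochondrial arm were still higher, and the cytosolic pair was not called. PHGDH was 6.35-fold higher (log2 fold change 2.67 ± 0.33), PSAT1 4.91-fold (2.29 ± 0.25) and PSPH 4.53-fold (2.18 ± 0.26). MTHFD2 was 2.70-fold higher, SHMT2 2.67-fold, ALDH1L2 2.89-fold and MTHFD1L 2.11-fold. With the GC trend removed the log2 fold changes of serine synthesis were 2.30 ± 0.32 for PHGDH, 2.78 ± 0.25 for PSAT1 and 2.14 ± 0.27 for PSPH. As counted, the mitochondrial arm had 1.42 ± 0.21 for SHMT2, 1.43 ± 0.19 for MTHFD2, 1.07 ± 0.17 for MTHFD1L and 1.53 ± 0.23 for ALDH1L2. With the trend removed these were 1.12 ± 0.21, 1.97 ± 0.18, 0.91 ± 0.17 and 2.01 ± 0.21 in the same order. PSAT1, MTHFD2 and ALDH1L2, the members lowest in GC content, stood higher than as counted, and the other 4 of these 7 lower. In all 7 even LPS_ABS 3 lay above every control library, for example at 60.6 FPKM in LPS_ABS 3 against 17.7 to 29.1 FPKM in controls for PHGDH. SHMT1 was at 0.22 ± 0.12 and MTHFD1 at -0.03 ± 0.17 on the log2 scale (0.07 ± 0.11 and 0.02 ± 0.13 with the trend removed). Both overlapped with controls in FPKM. In TMM-scaled CPM SHMT1 did not, at 36.3 to 37.5 in LPS_ABS against 30.1 to 33.3 in controls.

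For LPS_ABS against control, edgeR called 7 members higher and 0 lower, against 14.8% and 19.0% of all genes. With the GC trend removed 7 were called higher and 0 lower as well, against 8.07% and 5.33% of all genes. Groups of FPKM values did not overlap in 7 higher members, against 17.3% of all genes. Both this comparison and LPS against control use the same control libraries, and LPS against control shares its LPS libraries with the comparison above. The 7 calls held without each library in turn.

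**Figure D3:**
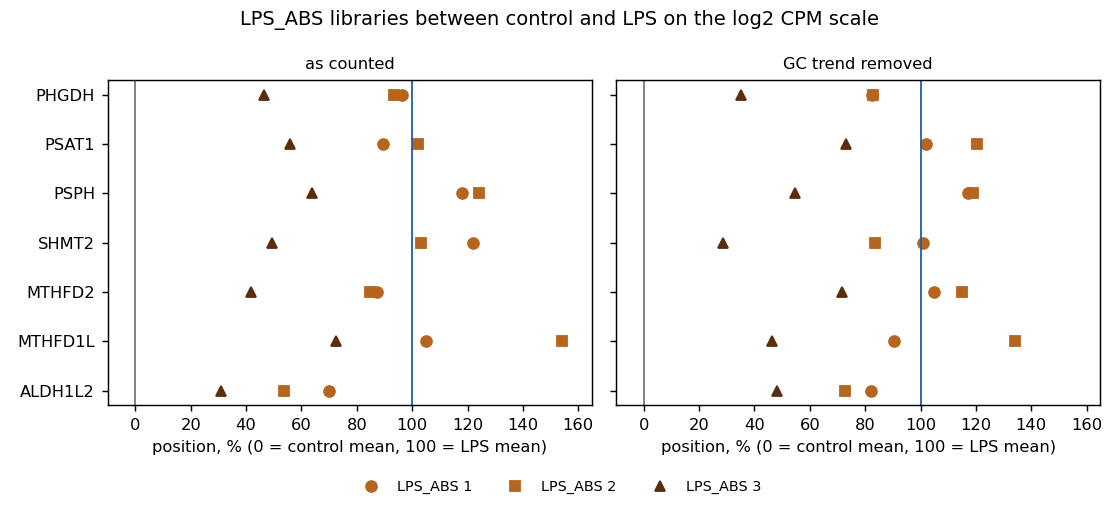
Position of each LPS_ABS library (symbols) between the control mean (0%) and the LPS mean (100%) on the log2 CPM scale for the 7 enzymes that were higher with LPS, as counted (left) and with the GC trend removed (right). LPS_ABS 3 (dark triangles) lies at 30.9% to 72.4% as counted, left of both other libraries in every row.

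The place of each LPS_ABS library between the control and LPS means shows the same spread by gene. As counted, LPS_ABS 3 lay at 46.3% of the way for PHGDH, 55.9% for PSAT1 and 63.8% for PSPH on the log2 CPM scale. In the mitochondrial arm it lay at 49.5% for SHMT2, 41.8% for MTHFD2, 72.4% for MTHFD1L and 30.9% for ALDH1L2. LPS_ABS 1 and 2 lay at 96.2% and 93.6% for PHGDH and at 70.1% and 53.6% for ALDH1L2, while for PSPH, SHMT2 and MTHFD1L both passed 100%. As counted, ALDH1L2 was thus the member of the 7 in which LPS_ABS 1 and 2 were also farthest from LPS. With the GC trend removed, LPS_ABS 1 and 2 both passed 100% for PSAT1, PSPH and MTHFD2. They then lay at 101% and 83.7% for SHMT2, 90.4% and 134% for MTHFD1L, and 82% and 72.6% for ALDH1L2. PHGDH, at 82.3% and 83%, then lay close to ALDH1L2. LPS_ABS 3 minus the mean of LPS_ABS 1 and 2 was -1.56 log2 units in PHGDH, the largest gap of the 7, and -0.54 in MTHFD1L, the smallest. The same difference was -0.03 in SHMT1 and 0.53 in MTHFD1. The differences kept their signs with the GC trend removed, at -1.54 for PHGDH, -0.63 for MTHFD1L and 0.35 for MTHFD1. LPS_ABS 3 also had the lowest share of counts in ribosomal protein genes, 7.51% against 8.75% to 10.7% in the other libraries, and the part of that library's state in these values was not tested.

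The balance of the 2 arms followed from these values. The summed FPKM of the 4 mitochondrial enzymes was 416 ± 129.8 in LPS_ABS, 515 ± 22.1 in LPS and 172 ± 19.3 in controls (SD, n = 3 each). That of SHMT1 and MTHFD1 was 66.8 ± 14.9 FPKM in LPS_ABS, 46.8 ± 5.01 FPKM in LPS and 72.0 ± 4.13 FPKM in controls. The ratio of the sums was 9.99, 6.85 and 3.30 in LPS_ABS, 9.93, 11.0 and 12.3 in LPS, and 2.67, 2.57 and 1.95 in controls. The LPS ratios lay above all control ratios, while the LPS_ABS ratios reached from just above the controls to just above the lowest LPS library. SHMT2 made up 73.7% of the mitochondrial sum in LPS_ABS, 67.0% in LPS and 73.5% in controls. Without SHMT2 the sum was 108 ± 30.5 FPKM in LPS_ABS, 169.9 ± 15.9 FPKM in LPS and 45.3 ± 3.35 FPKM in controls.

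Pairs of mitochondrial and cytosolic enzymes with related chemistry differed between the groups in the same order. The SHMT2 to SHMT1 ratio of FPKM was 30.8, 24.4 and 14.6 in LPS_ABS, 32.9, 37.5 and 39.9 in LPS, and 11.3, 10.3 and 8.82 in controls. SHMT2 therefore held 95.5% ± 1.70 of the summed SHMT FPKM in LPS_ABS, 97.3% ± 0.257 in LPS and 90.9% ± 1.05 in controls. The MTHFD2 to MTHFD1 ratio was 2.57, 1.88 and 0.842 in LPS_ABS, 3.50, 3.35 and 3.77 in LPS, and 0.662, 0.616 and 0.498 in controls. The MTHFD1L to MTHFD1 ratio was 0.257 ± 0.0940 in LPS_ABS, 0.341 ± 0.0179 in LPS and 0.114 ± 0.00852 in controls. As counted, for all 3 pairs every LPS library lay above every LPS_ABS library and every LPS_ABS library above every control. The narrowest gap was in the MTHFD1L to MTHFD1 ratio, between 0.318 in LPS_ABS 2 and 0.324 in LPS 1. No share over other gene pairs was taken, so nothing is read from this order. Both MTHFD ratios divide by MTHFD1, which was at 0.61 on the log2 scale in LPS_ABS against LPS. MTHFD1L was at 0.13 there. MTHFD2 was at -0.51, or -0.02 with the GC trend removed.

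**Figure D4:**
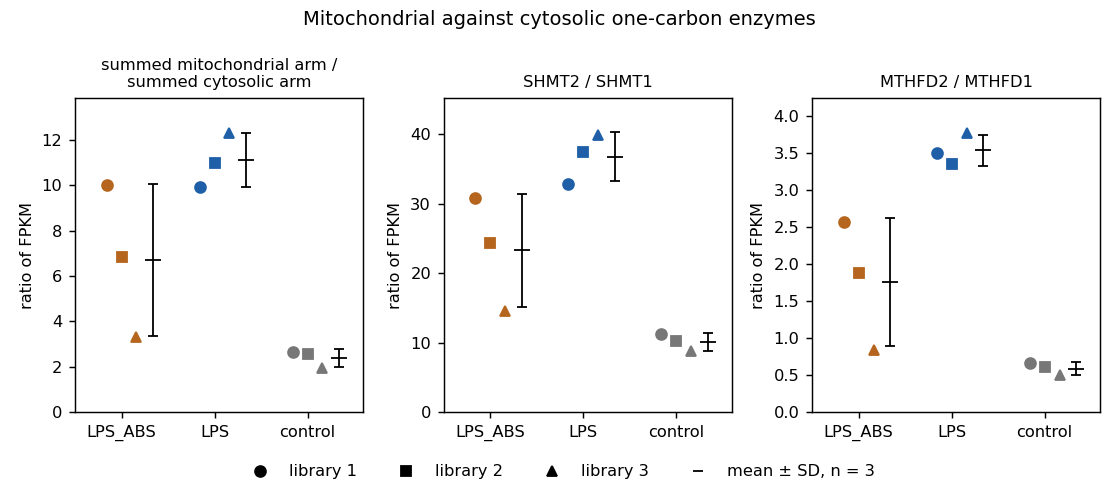
Ratios of FPKM (vertical axes, linear from 0) of mitochondrial over cytosolic enzymes in every library of LPS_ABS, LPS and control; black bars are the mean ± SD of 3 libraries. In each panel the LPS libraries lie above the controls, and the LPS_ABS libraries are spread out, between 3.30 and 9.99 in the left panel.

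On the log2 scale, the mean fold change of the mitochondrial arm minus that of the cytosolic arm was 2.32 in LPS against control. It was -1.04 in LPS_ABS against LPS, -0.85 with the GC trend removed and -0.73 without LPS_ABS 3. In LPS_ABS against control it was 1.27. The median fold change of all genes tested was -0.03, 0.02 and 0.05 in those comparisons. In mean log2 CPM, the arms differed by 1.68 ± 0.63 in LPS_ABS, 2.77 ± 0.07 in LPS and 0.45 ± 0.18 in controls. Here ± is the SD over 3 libraries. In LPS_ABS against LPS the mitochondrial enzymes ranged from -1.32 in ALDH1L2 to 0.13 in MTHFD1L, with a median of -0.29. SHMT2 was at -0.06 there, and the cytosolic pair averaged 0.60. No test was made of the difference between the arms, since the arms were named with the contrasts known.

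Serine synthesis kept its internal order within each group but, as counted, not its proportions. The PHGDH to PSPH ratio of FPKM was 4.05 ± 0.687 in LPS_ABS, 6.73 ± 1.39 in LPS and 3.0 ± 0.707 in controls. The PSAT1 to PSPH ratio was 6.16 ± 0.487 in LPS_ABS, 8.78 ± 0.569 in LPS and 5.64 ± 0.850 in controls. As counted, every LPS library lay above every LPS_ABS and control library in both ratios. With the GC trend removed, the log2 fold change in LPS_ABS against LPS was 0.05 for both PSAT1 and PSPH. That of PHGDH was -0.92. In FPKM, PHGDH stood below PSAT1 in all 9 libraries, with a PHGDH to PSAT1 ratio of 0.472 to 0.853. In CPM, which does not divide by length, PHGDH lay above PSAT1 in every library. The lengths implied by the FPKM were 7328 bases for PHGDH and 2206 for PSAT1.

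**Figure D5:**
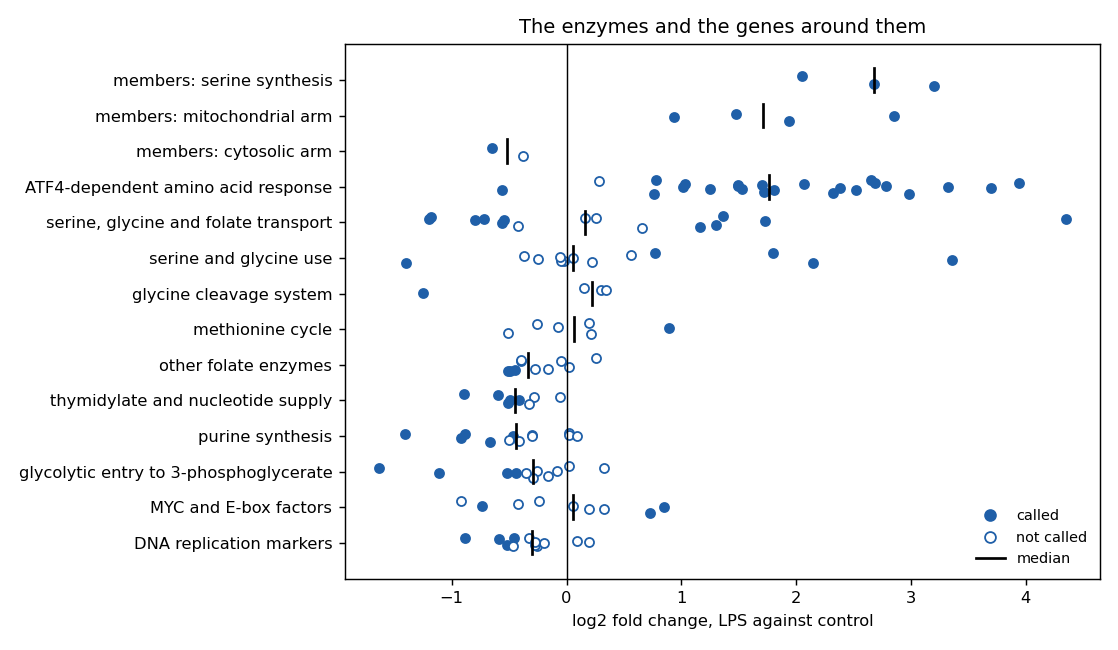
Log2 fold change in LPS against control (horizontal axis) of the 9 enzymes, in 3 rows, and of the tested genes of 11 lists around them; filled points are called at an adjusted p under 0.05 in edgeR and black ticks are medians. The ATF4 list has 22 filled points on the right, whereas the purine, thymidylate and DNA replication rows have filled points on the left of 0 and none on the right.

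Around these enzymes, the genes of the ATF4-dependent amino acid response lay on the same side with LPS. Of 24 such genes tested, 22 were called higher and 1 lower in LPS against control, with a median log2 fold change of 1.76 beside -0.03 for all genes. Here and for the lists that follow, 7.71% of all genes were called higher and 7.19% lower in LPS against control, and 16.8% and 18.8% in LPS_ABS against LPS. ATF4 itself stood at 212 ± 9.40 FPKM with LPS and 65.5 ± 1.11 FPKM in controls (SD, n = 3 each), a log2 fold change of 1.72 ± 0.15 (edgeR adjusted p = 7.2e-05). CHAC1, which degrades glutathione, was higher by 3.70 ± 0.31 (edgeR adjusted p = 7.2e-05), SESN2, a sestrin that restrains mTORC1, by 2.52 ± 0.25 (0.00013) and DDIT3, the stress factor CHOP, by 2.69 ± 0.29 (0.00015). In LPS_ABS against LPS, 4 of the 24 were called higher and 2 lower. With the GC trend removed these were 2 and 1, the lower one being ATF4 at -0.61 (edgeR adjusted p = 0.029). As counted, ATF4 was at -0.25 ± 0.14 and not called. Without LPS_ABS 3, 11 of the 24 were called higher and 3 lower. Leaving out LPS_ABS 1, LPS_ABS 2, LPS 1, LPS 3 or control 2 also moved the count of higher calls by over 1.5 times, with 2 the fewest.

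Carriers of serine, glycine and folate changed in both directions with LPS, with 5 of 15 genes tested called higher and 6 lower. The glycine transporter SLC6A9 was higher by 4.35 ± 0.52 log2 units (edgeR adjusted p = 0.00032), and the neutral amino acid exchangers SLC1A4 and SLC1A5 by 1.36 ± 0.19 (0.00076) and 1.16 ± 0.18 (0.0013). SLC38A5, which also carries serine, was lower, with a log2 fold change of -1.20 ± 0.17 (edgeR adjusted p = 0.00076). Without LPS 3 or control 3 as few as 3 of the 15 were called lower. Of 13 genes that use serine or glycine, 4 were called higher and 1 lower, or 2 lower without LPS_ABS 1 or LPS_ABS 3. CTH and CBS of the transsulfuration route were higher by 3.36 ± 0.42 and 1.80 ± 0.31 (edgeR adjusted p = 0.0004 and 0.0027), the reads of CBS being uncertain because the genome holds a near-identical copy. GCAT, a mitochondrial enzyme of glycine and threonine metabolism, was lower at -1.40 ± 0.18 (0.00056), and SPTLC2, a subunit of the enzyme that joins serine to palmitoyl-CoA, was higher at 0.77 ± 0.14 (0.0037).

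Other folate enzymes were called lower or not at all with LPS. Of 10 tested, 0 were called higher and 3 lower with LPS, among them TYMS, which makes thymidylate, and QDPR, which recycles tetrahydrobiopterin. The log2 fold changes of TYMS and QDPR were -0.51 ± 0.13 and -0.45 ± 0.12 (edgeR adjusted p = 0.024 and 0.025). The count of lower calls moved without LPS 2, LPS 3 or any 1 of the controls, down to 0. MTHFD2L, the mitochondrial relative of MTHFD2, averaged 0.252 FPKM in LPS_ABS, 0.302 FPKM in LPS and 0.255 FPKM in controls. ALDH1L1, the cytosolic relative of ALDH1L2, was below the count filter and listed at 0 in 8 of 9 libraries. In the glycine cleavage system, which also feeds carbon units into mitochondrial folate, GLDC and AMT averaged under 1 FPKM in every group and GCSH was lower with LPS, at -1.25 ± 0.22 (edgeR adjusted p = 0.0032).

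Genes of purine and thymidylate synthesis, which consume carbon units, were also called lower or not at all. Of 12 purine synthesis genes, 0 were called higher and 5 lower, among them PAICS (-0.88 ± 0.16), PFAS (-1.41 ± 0.27), PRPS1 (-0.67 ± 0.14) and PPAT (-0.92 ± 0.23). Their edgeR adjusted p-values were 0.0033, 0.0048, 0.0085 and 0.018. Of 8 thymidylate and nucleotide genes, 0 were called higher and 5 lower, with RRM2, a subunit of ribonucleotide reductase, at -0.89 ± 0.16 (edgeR adjusted p = 0.004). Of 12 DNA replication markers, 0 were called higher and 4 lower, led by MCM4 at -0.88 ± 0.16 (edgeR adjusted p = 0.0037). These counts ranged over 3 to 7, 1 to 6 and 1 to 4 when each library was left out in turn, with fewer calls without LPS 2 (thymidylate genes), LPS 3 or 1 of the controls. In LPS_ABS against LPS, 4 purine genes were called higher and 2 lower (3 and 1 with the GC trend removed), PFAS being higher by 1.65 ± 0.27 (edgeR adjusted p = 0.0039) and IMPDH2 by 0.69 ± 0.12 (0.0046).

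Upstream of PHGDH, 11 glycolytic genes leading to 3-phosphoglycerate were tested. In LPS against control 0 were called higher and 4 lower: HK2 (-1.63 ± 0.21), ALDOC (-1.11 ± 0.21), GPI (-0.52 ± 0.11) and PGK1 (-0.44 ± 0.11), with edgeR adjusted p-values of 0.00044, 0.005, 0.009 and 0.022. Without control 1 or control 2 fewer were called, 2 at the least. In LPS_ABS against LPS 7 were called higher and 0 lower, but 3 and 0 with the GC trend removed, among them HK2 at 1.19 ± 0.20 (edgeR adjusted p = 0.0044) and GPI at 0.64 ± 0.11 (0.0044). Of 6 methionine cycle genes, AHCYL1 was called higher in LPS against control, at 0.89 ± 0.12 (edgeR adjusted p = 0.00076). Of 9 MYC and E-box genes, 2 were called higher and 1 lower, which is not a result about the list. The lower calls were 3 without LPS_ABS 1 or LPS_ABS 3, 2 without LPS_ABS 2, LPS 1 or LPS 2, and 0 without LPS 3 or control 3, and the higher calls were 1 without control 1.

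Across the 9 libraries, the genes outside the pathway whose log2 CPM most resembled the mean profile of the 7 enzymes were WARS1 (Pearson r = 0.998), G0S2 (0.997), TSC22D3 (0.997), C1orf162 (0.996) and ATF4 (0.995). Among the 7 themselves r with that mean ran from 0.935 in ALDH1L2 to 0.997 in PSAT1. Each of the 7 is part of that mean, which raises its r, so these are not comparable with the outside genes. WARS1, the cytosolic tryptophanyl-tRNA synthetase, averaged 295 ± 117 FPKM in LPS_ABS, 391 ± 17.6 FPKM in LPS and 79.6 ± 4.84 FPKM in controls (SD, n = 3 each). The profile of the cytosolic pair was most resembled by TYMS (0.979), ATIC (0.971), VGLL4 (0.967), VDAC1 (0.966) and PITHD1 (0.966). TYMS averaged 150.3 ± 24.6 FPKM in LPS_ABS, 107 ± 16.1 FPKM in LPS and 154 ± 4.40 FPKM in controls. These values describe 9 libraries in 3 groups and carry no test.

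Some reads of these genes may belong elsewhere. In GENCODE 29, SHMT2, MTHFD2, SHMT1 and MTHFD1 overlap a gene on the opposite strand that was also counted, and how the counting treated strand is not stated. ALDH1L2 overlaps the protein-coding C12orf45 on the opposite strand, which had no value under that symbol. NDUFA4L2, opposite SHMT2, had at most 1085 counts, SLC4A5 opposite MTHFD2 at most 29 and ZBTB25 opposite MTHFD1 at most 232. SMCR8, opposite SHMT1, had 2835 to 4613 counts in LPS_ABS, 3200 to 3647 in LPS and 2846 to 3215 in controls, which is more than SHMT1 itself had. MTHFD2 has 7 annotated pseudogenes, PSAT1 4, and PSPH, SHMT1 and MTHFD1 1 each, so near-identical reads could have been split or lost.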

How the data were processed

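RNA from 9 libraries of PMA-treated THP-1 cells, 3 a group, was sequenced. Per the labels' protocols 2 library kits are named for every sample. Tools named in the submitters' processing notes, without roles, are DESeq2, HTSeq, HISAT2, fastp and R 3.2.0. Genome build and annotation are not given in the sources used here. The authors deposited raw read counts per gene and FPKM values. FPKM served for levels and ratios, and the deposited counts for tests.

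Counts were fitted with edgeR 4.0.16 in R 4.3.3 (filterByExpr, 12970 genes, TMM, 3 group means, 6 residual degrees of freedom, quasi-likelihood F test). The p-values were Benjamini-Hochberg adjusted over all genes tested, with calls at 0.05. The spread between libraries beyond counting was 18.38% as a common coefficient of variation. Libraries of 1 group differed by a chi-square of at least 7.22 per degree of freedom, so none was a duplicate. The GC correction fitted, per library, a lowess (span 0.3) of log counts on the GC content of GENCODE transcripts (found for 97.23% of genes) and used it as an offset. CPM were TMM-scaled, with a prior count of 2 on the log2 scale. The fits were tested on simulated data.

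The members and the 11 lists were chosen with earlier results of these data known. From each list the text names up to 4 tested genes with the smallest adjusted p in the comparison described, plus MTHFD2L and ALDH1L1, relatives of members named after their values were seen. A gene that the rule names is not reported here. Genes most alike were the 5 with the highest Pearson r, at 100 counts or more on average. Alternatives were other scalings, no filter on low counts, DESeq2 1.42.0, the GC correction, a replicate block, only the 2 groups compared and each library left out. The GC correction without LPS_ABS 3 was added after seeing the data.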

Additional observations from a re-analysis of the deposited data

How the results depend on the processing

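Of 486 refits of single members, 448 kept direction and call, 16 reversed, 16 gained a call and 6 lost one. No reversed value was called. In LPS_ABS against LPS, log2 fold changes reversed with the GC correction for PSAT1 (0.05) and MTHFD1L (-0.06), with the correction and the replicate block for MTHFD1L (-0.08) and PSPH (-0.02), and with the correction without LPS_ABS 3 for PSAT1 (0.32) and MTHFD2 (0.19). Leaving out 1 library gave -0.09 to 0.42 for PSPH, -0.10 to 0.29 for MTHFD1L and -0.30 to 0.19 for SHMT2, whose 2 reversed values were 0.005 and 0.19. In LPS_ABS against control, MTHFD1 reversed with the correction, with and without the block (0.02 in both), and ranged from -0.23 to 0.13 with 1 library left out. The cause was not tested.

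The difference between the arms in LPS_ABS against LPS moved to -0.59 with the GC correction without LPS_ABS 3. Leaving out 1 library gave -1.29 to -0.73 there, 2.22 to 2.41 in LPS against control and 1.02 to 1.59 in LPS_ABS against control. The ratio of summed arms in LPS was 13.2 from counts not divided by length. With 1 library left out, 7 to 9 members were called in LPS against control, 2 to 4 in LPS_ABS against LPS and 7 in LPS_ABS against control. Of 1188 refitted list counts, 965 stayed within 1.5 times.

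Replicate numbers were shared by the groups, and whether they pair the libraries was not settled. Deviations of same-numbered libraries correlated at -0.035 to 0.203, over 0.1 in 3 of 9 pairs. With 3 libraries per group these values cannot decide it. With the replicate block, 8 members were called in LPS against control, 4 in LPS_ABS against LPS and 7 in LPS_ABS against control. Counting error did not limit the members, whose lowest count in a library was 950.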
